A study of Rattus norvegicus with 19 samples.

Results

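The tumour change was followed separately in BDIV and BDIX, inbred rat strains whose malignant peripheral nerve sheath tumours (MPNST) were each set against trigeminal nerve of the same strain. Arrays were chosen by their strain and tissue labels alone, which gave 8 of the 19 Illumina arrays of the series. BDIV was represented by tumour 1 (T11, female), tumour 2 (T12, male), nerve pool 1 (control-5, male) and nerve pool 2 (control-6, female). BDIX was represented by tumour 1 (T3, female), tumour 2 (T4, female), nerve pool 1 (control-3, male) and nerve pool 2 (control-4, female). The tumours, taken from adult rats, had followed 1 subcutaneous injection on postnatal day 1 of ENU (N-ethyl-N-nitrosourea), a carcinogen that alkylates DNA, at a dose of 80 µg per g. The nerves came from rats 85 days old that carry the tag untreated, although the treatment text attached to their records also describes ENU. Each tumour array held RNA of a single tumour and each nerve array held RNA pooled from several nerves. The p-values measure only the spread between such samples within a strain and tissue, estimated over all 19 arrays and not from these 8 alone. The labels give no genotype beyond the strain name and name no transgene.

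The BDIX tumours alone among these 8 arrays were high-background arrays. The 25th percentile of raw signal, a measure of an array's background, was 92.7 and 86 in BDIX tumours 1 and 2, and 58.9 to 67.3 on the other 6. Over the whole series 11 arrays lay between 80.3 and 94.4 and 8 between 58.9 and 67.3. The BDIV comparison therefore lies within the low range, while in BDIX the tissue and the background range cannot be told apart from these arrays. For part of the results a value is also given with the background range as a block. This term of the fit is identified in this series only through the F1-hybrid tumours, 6 in the high range and 1 in the low range. Every value with the block therefore depends on how that 1 tumour differed from the other 6. BDIX calls and counts given without the block can also change with it. The share of probes detected lay between 46.9% and 54.2% on these 8 arrays. The BDIV pools were closely alike: the SD of the difference between both arrays of a pair was 0.20 on the log2 scale for these pools, 0.50 for the BDIX pools, 0.63 for the BDIV tumours and 0.50 for the BDIX tumours.

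MPNST are malignant tumours that arise in peripheral nerve, usually from cells of the Schwann cell lineage. The trigeminal nerve of an adult rat holds sensory axons, myelinating and non-myelinating Schwann cells, fibroblasts, perineurial cells, vessels and macrophages. Newborn BDIX rats are known to be susceptible to ENU-induced trigeminal tumours, and BDIV rats to be more resistant. In bulk tissue, fewer cells of a type and less RNA per cell cannot be told apart.

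Myelin and endoneurial genes marked the nerve pools in both strains. Mbp, a structural protein of compact myelin, had levels of 11.77 and 11.72 (log2 signal) in BDIV pools 1 and 2 and of 8.42 and 9.50 in BDIV tumours 1 and 2. In BDIX it lay at 12.89 and 13.80 in the pools and at 7.59 and 7.58 in the tumours. Tumours and pools did not overlap in either strain, and Mbp fell by 2.78 ± 0.44 (SE) in BDIV and by 5.76 ± 0.44 in BDIX, with limma adjusted p of 0.000203 and 8.78e-07. Maob, a mitochondrial amine oxidase, was 11.30 and 11.59 in the BDIV pools against 7.43 and 8.02 in the BDIV tumours, and 12.78 and 13.49 in the BDIX pools against 8.45 and 7.83 in the BDIX tumours. Mfap5, a microfibril protein made by fibroblasts, was 9.84 and 9.80 against 7.03 and 6.67 in BDIV, and 11.02 and 10.62 against 7.0 and 5.56 in BDIX. Both fell in both strains, Maob by 3.72 ± 0.74 and 4.99 ± 0.74 and Mfap5 by 2.97 ± 0.50 and 4.54 ± 0.50, in BDIV and BDIX in that order.

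Gsn, which encodes the actin-severing protein gelsolin, went below the pools in BDIX. Its levels were 13.74 and 14.38 in the BDIX pools and 11.78 and 11.66 in the BDIX tumours, a fall of 2.34 ± 0.51 (adjusted p = 0.00341). In BDIV the pools were at 12.88 and 13.06 and the tumours at 12.72 and 12.26, and the difference of -0.48 ± 0.51 did not pass the test (adjusted p = 0.526). The change itself did not differ between strains past the threshold (adjusted p = 0.124). Sox10, the transcription factor that defines the Schwann cell lineage, was 11.95 and 12.63 in the BDIV tumours and 12.54 and 12.79 in the BDIX tumours. All 4 tumours thus held Sox10 at similar levels, all above 10.52 and 10.48 in the BDIV pools, whereas the BDIX pools had 12.15 and 12.36.

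Across the array, 3690 of 11492 features passed the test in BDIV, 32.1% of all, and 3268 passed it in BDIX, 28.4%. A feature is 1 gene or unnamed probe, and a call is a limma adjusted p under 0.05. In BDIV 1901 features rose (16.5%) and 1789 fell (15.6%), and in BDIX 1612 rose (14%) and 1656 fell (14.4%). Both strains were called with the same sign for 1707 features (14.9%), of which 822 rose (7.15%) and 885 fell (7.7%). These shared changes made up 46.3% of the BDIV calls and 52.2% of the BDIX calls, and 1284 of them were at least 1 in size on the log2 scale in both strains. Both strains were called with opposite sign for 59 features (0.513%), 3.34% of the 1766 called in both.

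Whether a change differs between strains was tested directly, as the BDIX change minus the BDIV change. This strain difference passed for 974 features (8.48%), higher in BDIX for 484 (4.21%) and lower for 490 (4.26%). A feature counted as changed in BDIV only, or in BDIX only, when it was called in that strain, not in the other, and in the strain difference. By this rule 404 features changed in BDIV only (3.52%) and 302 in BDIX only (2.63%). A further 1520 features called in BDIV and 1200 called in BDIX were not called in the other strain but did not pass the test of the strain difference, and so are not assigned to 1 strain. Of the 1707 shared features, 186 also differed in size between strains, 143 with the larger change in BDIV and 43 in BDIX.

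The strain difference depended more on single arrays than the shared changes did. The 974 features became 143 without BDIV pool 1, 190 without BDIV pool 2, 263 without BDIX tumour 1, 428 without BDIX tumour 2, 434 without BDIV tumour 2, 285 without BDIX pool 2, 802 without BDIV tumour 1 and 859 without BDIX pool 1. Shared changes numbered between 1140 and 1543 when each of the 8 arrays was left out in turn. With the closely alike BDIV pools averaged and counted as 1 sample, 168 features passed the strain difference, 106 changed in 1 strain only, 17 were opposite and 1248 were shared.

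**Figure D1:**
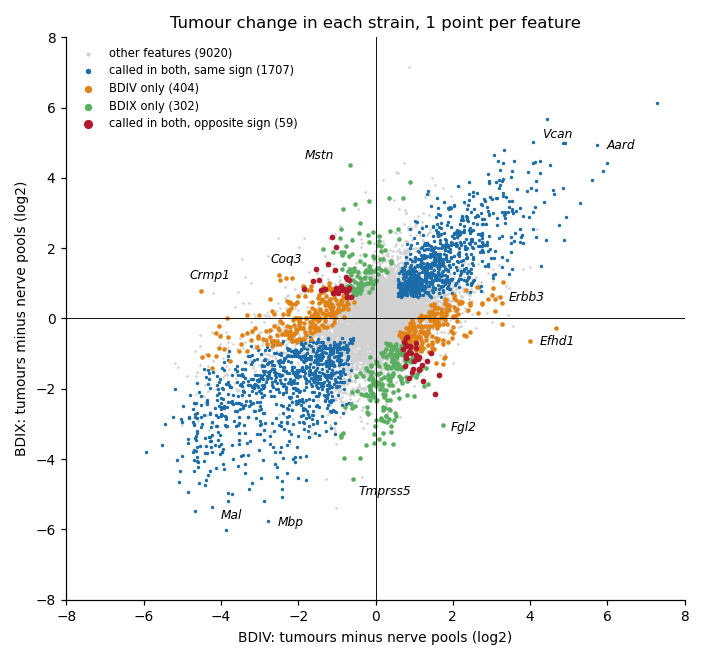
Difference between tumours and nerve pools on the log2 scale in BDIV (x axis) and BDIX (y axis), 1 point for each of 11492 features, coloured by class. Shared changes (1707, blue) lie along the diagonal, features of 1 strain only (404 and 302) along the axes and the 59 opposite features in the upper left and lower right.

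Mitotic genes led the shared rises. Among the 10 named genes with the largest smaller change of the 2 strains, Cdk1, Cks2, Pbk, Prc1 and Knstrn act in mitosis. Cdk1, the mitotic kinase, was 6.11 and 5.75 in the BDIV pools and 10.23 and 11.32 in the BDIV tumours, and 7.58 and 5.83 in the BDIX pools and 11.75 and 11.63 in the BDIX tumours. It rose 28.8-fold in BDIV and 31.6-fold in BDIX, and every tumour lay above every pool. The shares of all features that rose were 16.5% in BDIV and 14% in BDIX. Of the 30 measured S phase and mitosis genes, 26 rose in BDIV and 29 in BDIX, with none lower in either. Their median changes were 2.89 and 3.29, against 0.13 and 0.04 over all features. Both BDIV tumours lay below both BDIX tumours for 22 of the 30 genes, and both BDIV pools below both BDIX pools for 20, against 29.8% of all features for tumours and 36.4% for pools.

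The gene with the largest shared rise was Aard. Its levels were 7.65 and 6.80 in the BDIV pools against 12.44 and 13.49 in the BDIV tumours, and 9.10 and 7.41 in the BDIX pools against 12.88 and 13.51 in the BDIX tumours. It rose 53.5-fold in BDIV (5.74 ± 0.56, limma adjusted p = 2.58e-06) and 30.7-fold in BDIX (4.94 ± 0.56, adjusted p = 1.97e-05). Mlph, the melanophilin that links pigment granules to myosin, was at 9.98 and 9.44 in the BDIV tumours and 9.90 and 9.72 in the BDIX tumours. It was not above background in any of the 4 pools, so that its rise was at least 24.3-fold in BDIV and at least 26.1-fold in BDIX. Such bounds take the lowest detected signal of each array in place of undetected values. Of the melanocyte genes measured, Tyrp1, a melanosome enzyme, fell by 4.08 ± 0.61 in BDIV and 3.24 ± 0.61 in BDIX on the log2 scale (limma adjusted p = 0.000129 and 0.00123), and Mlana was called in neither strain.

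Adhesion and matrix genes were the other shared rises of this size. Vcan, a large matrix proteoglycan, was 7.58 and 7.46 in the BDIV pools and 11.93 and 11.24 in the tumours, and 8.71 and 7.55 in the BDIX pools and 13.31 and 12.97 in the tumours. It rose by 4.07 ± 0.33 in BDIV and 5.01 ± 0.33 in BDIX. Itga1, a collagen-binding integrin subunit, rose by 3.96 ± 0.44 and 4.18 ± 0.44, and Pcdh20, an adhesion protein of the protocadherin family, by 4.45 ± 0.84 and 5.68 ± 0.84. Postn, a secreted matrix protein, reached 13.77 and 13.37 in the BDIV tumours and 11.19 and 11.94 in the BDIX tumours. Its pools were at 8.79 and 7.76 in BDIV and at 9.11 and 7.42 in BDIX, and its rises of 5.29 ± 0.72 and 3.30 ± 0.72 did not differ past the threshold (adjusted p = 0.243).

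Receptor tyrosine kinase signalling passes through ERK, whose activity induces a set of target and feedback genes. Of 16 measured ERK output genes, 10 rose in BDIV and 7 in BDIX, 5 in both, and none fell. The shares of all features that rose were 16.5% in BDIV and 14% in BDIX. Ccnd1, the G1 cyclin, was 10.18 and 9.99 in the BDIV pools and 12.90 and 12.91 in the tumours, and 11.51 and 10.19 in the BDIX pools and 14.18 and 14.21 in the tumours. Its rise was 7.07-fold in BDIV and 10.2-fold in BDIX. Spry2, a feedback inhibitor of receptor signalling, rose by 2.45 ± 0.34 and 2.43 ± 0.34. Nf1, which encodes the Ras GTPase-activating protein neurofibromin, stayed near the background, between 4.80 and 5.66 on all 8 arrays. It did not pass in either strain, and it was not above background in either BDIV pool.

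Neuronal genes led the shared falls. Snap25, a protein of the synaptic vesicle fusion machinery, was 13.04 and 12.89 in the BDIV pools and 8.02 and 9.07 in the tumours, and 12.08 and 12.86 in the BDIX pools and 8.70 and 6.80 in the tumours. It was 21.4-fold lower in the BDIV tumours and 26.4-fold lower in the BDIX tumours. Kcnk1, a potassium channel subunit, was 28.9-fold and 30.8-fold lower, and Vsnl1, a neuronal calcium sensor, fell by 5.09 ± 0.39 and 4.64 ± 0.39 on the log2 scale. Fgf13, an intracellular regulator of sodium channels, fell by 5.06 ± 0.25 in BDIV. It was not above background in either BDIX tumour, where the fall was at least 13.9-fold. Htr3a, the serotonin-gated channel, Scn4b, a sodium channel subunit, and Stmn2, a neuronal microtubule regulator, fell by 4.28 to 4.71 in BDIV and by 4.34 to 4.67 in BDIX.

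Of 22 measured sensory neuron genes, 16 fell in BDIV and 13 in BDIX, all 13 of the latter in both strains, and none rose. The shares of all features that fell were 15.6% in BDIV and 14.4% in BDIX. The median changes of the list were -3.98 and -3.13. Both BDIV pools lay above both BDIX pools for 20 of the 22 genes, against 30.5% of all features. The mean of the list, with each gene taken relative to its own mean over the 8 arrays, was 2.10 in both BDIV pools and 1.02 and 1.09 in the BDIX pools. In the tumours it was -1.54 and -1.21 in BDIV and -1.26 and -2.29 in BDIX. The neuronal genes were thus higher in BDIV nerve than in BDIX nerve, and their part in the other strain differences was not tested.

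Myelin genes fell in both strains, from a higher level in BDIX nerve. Of 14 measured myelin genes, 10 fell in each strain, 8 of them in both, and 1 rose in BDIV. The shares of all features that fell were 15.6% in BDIV and 14.4% in BDIX. Mal, a myelin proteolipid, was 13.57 and 14.06 in the BDIV pools and 9.15 and 10.01 in the tumours, and 14.79 and 15.30 in the BDIX pools and 9.63 and 9.76 in the tumours. It was 18.9-fold lower in BDIV tumours and 40.8-fold lower in BDIX tumours. Cldn19, a tight junction protein of myelin, fell by 3.81 ± 0.46 and 5.20 ± 0.46, and Egr2, the transcription factor that drives myelination, by 2.40 ± 0.54 and 2.68 ± 0.54. Both BDIV pools lay below both BDIX pools for 11 of the 14 genes, against 36.4% of all features. Genes of the myelin of the central nervous system were present in the pools and uneven between them: Mobp was 9.63 and 7.95 in the BDIV pools and 7.84 and 6.32 in the BDIX pools, and Mog 8.84 and 6.95 against 7.43 and 5.46. Both passed the test as lower in BDIV (-4.20 ± 0.86 and -2.76 ± 0.86, limma adjusted p = 0.00162 and 0.0221) and not in BDIX. Mobp and Mog are named after their values were seen, and their part in the myelin values was not tested. The fall of Mbp was larger in BDIX by 2.98 ± 0.62 (adjusted p = 0.0129), and its BDIX tumours were lower and its BDIX pools higher than those of BDIV. This strain difference was -3.39 with the background range as a block (limma adjusted p = 0.0563) and -1.60 with the background effect removed (adjusted p = 0.288), and its call was also lost with the BDIV pools averaged.

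Genes of early Schwann cells and neural crest moved less uniformly. Of 20 measured members, 10 rose and 1 fell in BDIV, and 4 rose and 3 fell in BDIX. Among all features 16.5% rose and 15.6% fell in BDIV, and 14% rose and 14.4% fell in BDIX. Tfap2a, a neural crest transcription factor, rose by 2.47 ± 0.39 and 3.02 ± 0.39, and the cell adhesion gene Ncam1 by 2.75 ± 0.34 and 2.17 ± 0.34. Erbb3, the neuregulin receptor of Schwann cells, was 7.42 and 7.07 in the BDIV pools and 9.79 and 11.12 in the BDIV tumours. In BDIX the pools held 8.57 and 9.28 and the tumours 9.24 and 9.85, so that the groups overlapped. Erbb3 rose by 3.21 ± 0.39 in BDIV (limma adjusted p = 1.83e-05) and the BDIX difference of 0.62 ± 0.39 did not pass, with a strain difference of -2.59 ± 0.55 (adjusted p = 0.0135; 0.101 with the background range as a block).

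Sox10 followed the same order as Erbb3. It rose by 1.79 ± 0.28 in BDIV, whereas its BDIX difference of 0.40 ± 0.28 did not pass, and the strain difference was -1.38 ± 0.40 (adjusted p = 0.0453; 0.0735 with the background range as a block). S100b, a calcium-binding Schwann cell protein, was 13.07 and 13.31 in the BDIV pools and 12.55 and 13.03 in the BDIV tumours. In BDIX it was 13.61 and 13.76 in the pools and 10.91 and 10.85 in the tumours, and fell by 2.80 ± 0.52. Its strain difference of -2.40 ± 0.73 missed the threshold (adjusted p = 0.0561). Ngfr, the low-affinity neurotrophin receptor, was below both pools in the BDIV tumours (9.72 and 8.42 against 11.16 and 11.28) and above both in the BDIX tumours (12.96 and 12.53 against 10.98 and 11.16), but passed in neither strain. Gap43, a growth cone protein also made by Schwann cells without myelin, fell by 2.32 ± 0.71 in BDIV and did not pass in BDIX (1.14 ± 0.71), with a strain difference of 3.46 ± 1.00 that did not pass with the background range as a block (2.32, adjusted p = 0.354).

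Olig1, a transcription factor of oligodendrocyte precursors, stood apart in BDIX without passing the test. It was 13.22 and 13.66 in the BDIX tumours and 7.08 and 5.51 in the BDIX pools, against 7.59 and 9.35 in the BDIV tumours and 8.57 and 6.64 in the BDIV pools. The BDIX difference of 7.14 ± 2.96 missed the threshold (limma adjusted p = 0.0844), in a fit whose spread for this gene comes from all 19 arrays. In BDIV tumours and pools overlapped. Olig1 is named after its values were seen.

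**Figure D2:**
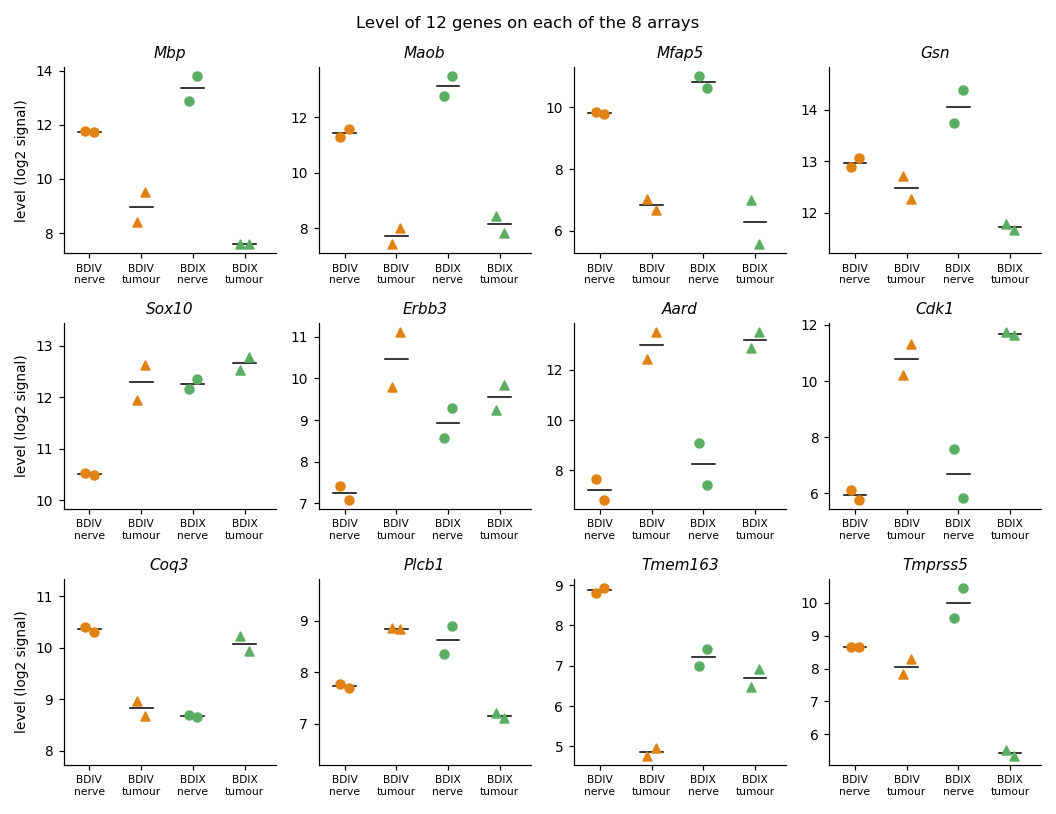
Level of 12 genes on the log2 scale on each of the 8 arrays, with circles for nerve pools, triangles for tumours and a line at the mean of each pair. Each panel has its own y axis: Aard and Cdk1 rise in both strains, Mbp, Maob and Mfap5 fall in both, and Coq3 and Plcb1 move in opposite directions.

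Changes in BDIV only included growth cone and actin genes that fell. Of the 404 features, 186 rose (1.62%) and 218 fell (1.9%). Crmp1, a mediator of semaphorin signalling in growth cones, was 11.27 and 11.54 in the BDIV pools and 6.88 and 6.90 in the BDIV tumours. In BDIX the pools held 9.44 and 9.89 and the tumours 11.08 and 9.81. It was 22.8-fold lower in BDIV tumours, with a strain difference of 5.29 ± 1.38 (limma adjusted p = 0.0312). Basp1, a membrane protein of growth cones, fell by 3.85 ± 0.64, and Tmod1, which caps actin filaments, by 4.12 ± 0.64. Rnf182, a ubiquitin ligase, and Cnrip1, which binds the cannabinoid receptor, fell by 4.05 ± 0.69 and 2.46 ± 0.40.

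The background range as a block does not change the BDIV differences, because all BDIV arrays lie in the low range. With it, 5 of the 6 named falls in BDIV only lost the strain difference, Crmp1 at 4.59 (limma adjusted p = 0.203). Tmem163, a zinc transporter, kept it under every alternative run. It was 8.80 and 8.94 in the BDIV pools and not above background in either BDIV tumour, a fall of at least 12.8-fold. In BDIX the pools were at 7.0 and 7.41 and the tumours at 6.47 and 6.92, and the strain difference was 3.50 ± 0.42 (adjusted p = 0.000675). All 6 genes lay higher in both BDIV pools than in both BDIX pools, against 30.5% of all features. Their choice by the size of the strain difference favours such genes.

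Of the rises in BDIV only, Efhd1, a mitochondrial calcium-binding protein, was the largest. It was 8.86 and 8.62 in the BDIV pools and 13.07 and 12.44 in the BDIV tumours, against 8.88 and 9.19 in the BDIX pools and 8.54 and 8.25 in the BDIX tumours. Both strains thus had similar nerve levels, and Efhd1 rose 16.1-fold in BDIV. Pgc, the gastric protease precursor progastricsin, was at 5.35 and 5.20 in the BDIV pools and at 7.18 and 9.92 in the tumours, and rose by 3.27 ± 0.55. Mgp, a matrix protein that inhibits calcification, rose by 3.28 ± 0.50, from 11.64 and 11.36 to 14.97 and 14.60. Lrrc23, the secreted protein gene Mia and the cytochrome P450 gene Cyp2d4 rose by 1.75 to 1.79. With the background range as a block, which does not change the BDIV differences, all 6 rises lost the strain difference, Efhd1 at -3.08 (limma adjusted p = 0.195). Their strain difference was also lost with the BDIV pools averaged.

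Changes in BDIX only comprised 104 features that rose (0.905%) and 198 that fell (1.72%). Mstn, the growth factor myostatin, was 9.37 and 9.45 in the BDIX tumours against 4.79 and 5.31 in the BDIX pools, and lay between 4.67 and 5.38 on all 4 BDIV arrays. It was above background in 1 of the 2 BDIX pools. The measured rise was 20.6-fold, with a strain difference of 5.02 ± 1.13 (limma adjusted p = 0.0181). Nxph1, a ligand of neurexins, was 7.88 and 8.93 in the BDIX tumours and not above background in either BDIX pool, a rise of at least 9.85-fold. Mgmt, the repair protein that removes alkyl groups from guanine, was 8.71 and 9.34 in the BDIX tumours and 6.30 and 5.25 in the BDIX pools, and rose by 3.25 ± 0.76. On the BDIV arrays Mgmt was 6.59 and 5.98 in the tumours and 6.95 and 6.68 in the pools, where the difference did not pass (-0.53 ± 0.76). Serpinb9, a granzyme inhibitor, Nnmt, which methylates nicotinamide, and Anp32a rose by 1.97 to 2.56. With the background range as a block 5 of these 6 rises lost their BDIX call, Mgmt at 2.35 (limma adjusted p = 0.184) and Mstn at 3.15 (adjusted p = 0.0836) among them, and Nxph1 kept it. All 6 lost the strain difference with the block and with the BDIV pools averaged.

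Among the falls in BDIX only, Tmprss5, a membrane-bound serine protease, was 9.55 and 10.46 in the BDIX pools and 5.53 and 5.33 in the BDIX tumours. On the BDIV arrays it was 8.67 and 8.64 in the pools and 7.83 and 8.29 in the tumours. It was above background in 1 of the 2 BDIX tumours, and measured 23.9-fold lower there than in the pools, with a strain difference of -3.98 ± 0.57 (adjusted p = 0.00259). Fgl2, a fibrinogen-like protein, and Col23a1, a membrane collagen, were not above background in either BDIX tumour, and their falls were at least 7.59-fold and 6.72-fold on the scale of these values. For Fgl2 that size depends on the treatment of background: its BDIX difference was -1.38 with the background range as a block (limma adjusted p = 0.425) and -0.56 with the background effect removed (adjusted p = 0.612), and neither passed. Palmd fell by 3.28 ± 0.50. Of the 6 named falls in BDIX only, Hba-a3 and Lgals5 included, 5 kept their BDIX call with the block, and the strain difference kept its call for Tmprss5 and Col23a1.

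Haemoglobin moved with the BDIX falls. Hba-a3, an alpha globin, was 12.30 and 11.47 in the BDIX pools, 8.26 and 7.58 in the BDIX tumours and between 5.96 and 7.17 on the BDIV arrays. Lgals5, a galectin of rat red blood cells, fell by 3.59 ± 0.43 in BDIX. Of 4 measured genes of the red blood cell list 3 fell in BDIX, against 14.4% of all features, and none was called in BDIV. None of these 4, which do not include Hba-a3 and Lgals5, passed the strain difference. With the background range as a block 1 of the 4 fell in BDIX. Both BDIV pools lay below both BDIX pools for all 4, against 36.4% of all features. Globin genes are near-identical copies that probes may not separate. The part of blood in the nerve pools in other BDIX falls was not tested.

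Opposite changes were smaller than shared ones. Of the 59, 32 rose in BDIV and fell in BDIX (0.278%) and 27 did the reverse (0.235%). Coq3, an enzyme of coenzyme Q synthesis, was 10.40 and 10.31 in the BDIV pools and 8.97 and 8.68 in the BDIV tumours, and 8.70 and 8.66 in the BDIX pools and 10.22 and 9.93 in the BDIX tumours. It fell by 1.53 ± 0.36 in BDIV and rose by 1.40 ± 0.36 in BDIX. Luzp1, an actin-associated protein, was 10.64 and 10.69 in the BDIV pools, 9.20 and 8.91 in the BDIV tumours, 9.11 and 9.70 in the BDIX pools and 10.35 and 10.60 in the BDIX tumours. Spint1, a protease inhibitor, and Impa2, an inositol phosphatase, also fell in BDIV, by 1.23 and 1.47, and rose in BDIX, by 1.54 and 1.10.

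The other named opposite genes rose in BDIV and fell in BDIX. Plcb1, a phospholipase C, was 7.76 and 7.69 in the BDIV pools and 8.86 and 8.84 in the tumours, and 8.35 and 8.90 in the BDIX pools and 7.20 and 7.11 in the tumours. Its strain difference was -2.59 ± 0.41 (limma adjusted p = 0.00406). Ccl7, a monocyte chemoattractant, rose by 1.53 ± 0.51 in BDIV and fell by 2.14 ± 0.51 in BDIX. Lrrc17, Acad10, Inpp5f and Cyp2t1 rose by 1.09 to 1.64 in BDIV and fell by 1.15 to 1.59 in BDIX. For 26 of the 59 features the pools of both strains differed more than the tumours did, against 45.8% of all features. With the background range as a block 9 of the 59 remained opposite, none of them among the 10 named genes, all 10 of which lost their BDIX call. The BDIX difference of Coq3 was then 0.66 (limma adjusted p = 0.405) and that of Plcb1 -1.15 (adjusted p = 0.0866). Luzp1 and Plcb1 kept their strain difference with the block, which does not change the BDIV differences. With the BDIV pools averaged 17 features were opposite in all.

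Energy and lipid genes showed both patterns. Among all features 16.5% rose and 15.6% fell in BDIV, and 14% rose and 14.4% fell in BDIX. None of 28 measured respiratory chain genes rose in BDIV and 9 fell, whereas 3 rose and 2 fell in BDIX. The strain difference was higher in BDIX for 8, with none lower, against 4.21% and 4.26% of all features. Cox5a, a subunit of cytochrome oxidase, was 12.86 and 12.70 in the BDIV pools, 11.55 and 10.89 in the BDIV tumours, 11.83 and 10.73 in the BDIX pools and 11.58 and 11.43 in the BDIX tumours. Both BDIV pools lay above both BDIX pools for 22 of the 28 genes, against 30.5% of all features. None of the 8 passed with the BDIV pools averaged, and 1 passed with median scaling. Of 14 measured cholesterol synthesis genes 11 fell in BDIV and 7 in BDIX, all 7 in both. Among them Fdft1, squalene synthase, fell by 2.23 ± 0.41 and 2.22 ± 0.41 and Cyp51, a sterol demethylase, by 2.16 ± 0.24 and 2.37 ± 0.24.

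Srebf1, a transcription factor of lipid synthesis, differed between strains. It was 9.40 and 9.51 in the BDIV pools and 11.72 and 11.85 in the BDIV tumours, and 10.12 and 10.64 in the BDIX pools against a mean of 9.87 in the BDIX tumours, both of which were lower. It rose by 2.33 ± 0.34 in BDIV, with a strain difference of -2.83 ± 0.48 (limma adjusted p = 0.00506). Cers2, a ceramide synthase of myelin lipids, fell by 1.63 ± 0.23 in BDIX and did not pass in BDIV (0.41 ± 0.23), with a strain difference of -2.04 ± 0.33. Gmnn, geminin, which restrains DNA replication, was the S phase gene that rose in BDIX only, from 8.55 and 8.02 to 10.62 and 10.31. On the BDIV arrays it lay between 9.24 and 9.49.

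Matrix and immune lists were read beside their cell type markers. Of 21 measured matrix genes 10 rose and 1 fell in BDIV, and 7 rose and 2 fell in BDIX, with medians of 1.49 and 0.28. Over all features 16.5% rose and 15.6% fell in BDIV, and 14% rose and 14.4% fell in BDIX. Both BDIV pools lay below both BDIX pools for 16 of the 21, against 36.4% of all features, and no matrix gene passed the strain difference. Of 16 macrophage genes 6 rose in BDIV and 7 in BDIX, 5 of them in both, against 16.5% and 14% of all features that rose. With the background range as a block 1 macrophage gene rose in BDIX, and with the BDIV pools averaged 2 rose in BDIV. C1qa, a complement subunit made by macrophages, rose by 2.08 ± 0.54 and 2.06 ± 0.54, and its BDIX call was lost with the block (limma adjusted p = 0.0845). Of 15 antigen presentation genes 8 rose in BDIV and 4 in BDIX, the latter 0 with the block. Of 19 interferon response genes 7 and 1 rose, against the same 16.5% and 14% of all features. No member of these 3 lists passed the strain difference. In a simulation with far fewer changed features than were called here, that test found 0% of differences of 1 and 36.4% of those of 2. The unequal counts show neither a difference between strains nor its absence.

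Other cell types were covered by lists of their own. Of 13 fibroblast genes 1 fell in BDIV and 3 in BDIX, and of 4 perineurial genes 1 and 3 fell, against 15.6% and 14.4% of all features that fell. Both BDIV pools lay below both BDIX pools for 10 of the fibroblast genes and 3 of the perineurial genes, against 36.4% of all features. No T and NK cell gene of 7 was called in either strain, and of 9 skeletal muscle genes 1 rose in BDIX. The shares of all features that rose were 16.5% in BDIV and 14% in BDIX. Of 11 endothelial genes 1 rose and 2 fell in BDIV, and 2 rose and 4 fell in BDIX. Among them Angpt2, a growth factor of remodelling vessels, rose by 4.94 ± 0.54 and 2.90 ± 0.54, while Sox17 and Emcn fell by 1.19 to 1.74 in both strains.

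**Figure D3:**
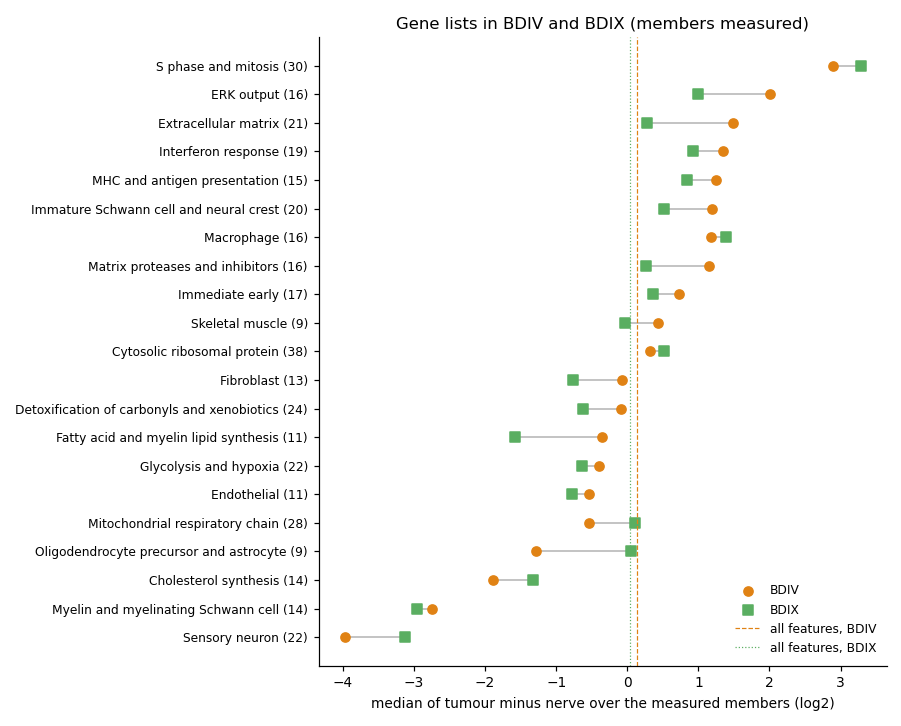
Median of tumour minus nerve on the log2 scale over the measured members of 21 gene lists in BDIV (circles) and BDIX (squares), with the medians of all features as vertical lines. S phase and mitosis genes lie highest (2.89 and 3.29) and sensory neuron genes lowest (-3.98 and -3.13), and the respiratory chain list lies on either side of 0.

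A strain difference can come from the tumours, from the nerves or from both. For 520 of the 974 features (53.4%, against 45.8% of all features) the pools of both strains differed more than the tumours did, and for 452 the tumours differed more. The 2 congenic BDIX.BDIV-Mss4a pools, whose strain name denotes a BDIV segment on a BDIX background, took no part in the contrast. Unlike the BDIV and BDIX pools, both were high-background arrays (25th percentile of raw signal 84.8 and 80.3). The part of the background range in their values was not tested. Among 392 features with a pool difference of at least 1 that exceeded the tumour difference, the congenic pools were nearer to the BDIX pools for 283 (72.2%, against 59.2% of all features). For Coq3 they lay at 9.59 and 9.63, between both strains, and for Tmem163 at 8.14 and 7.67.

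The F1-hybrid tumours gave a second view of the 335 features whose tumour difference was at least 1 and exceeded the pool difference. The mean of the 6 F1-hybrid tumours of the high background range was nearer to the BDIX tumours for 249 (74.3%, against 64.4% of all features). The F1-hybrid tumour of the low range was nearer to the BDIX tumours for 126 (37.6%, against 39.2% of all features) and to the BDIV tumours for 209. For Efhd1 that tumour had 12.06 and the other 6 ranged from 9.03 to 12.05. The low range held only 1 F1-hybrid tumour, and its share lay near that of all features. The part of strain in the tumour differences was not tested apart from the background range.

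With the background range as a block 140 features passed the strain difference, of which 112 were among the 974. BDIX calls became 1635, BDIV calls 3981 and shared changes 1136, and 1012 of the 1707 shared features remained shared. Of all 11492 features 758 then rose and 877 fell in BDIX. Among the lists, 4 ERK output genes and 4 matrix genes then rose in BDIX, and 0 matrix genes fell. Falls in BDIX were called for 8 myelin, 11 sensory neuron and 5 cholesterol synthesis genes, while 29 S phase and mitosis genes still rose. For the respiratory chain 1 strain difference was higher in BDIX, against 81 over all features. Of the 53 named genes called in the strain difference, 10 were called with the block. Plcb1, Luzp1, Tmem163, Tmprss5, Col23a1, Gmnn, Srebf1 and Cers2 kept the strain difference under the block and every other alternative, each array left out in turn included. Of the 20 named shared genes, 18 were called in both strains under every alternative. Mal in BDIV and Stmn2 in BDIX were the exceptions.

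**Figure D4:**
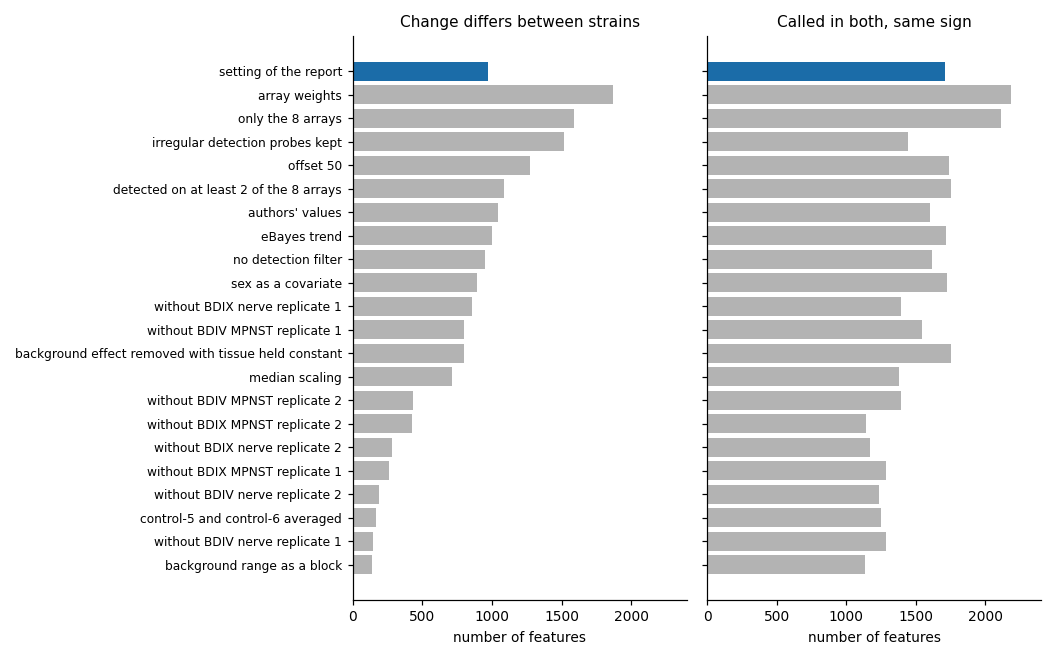
Number of features whose change differed between strains (left) and number called in both strains with the same sign (right) under the setting of the report (blue) and each alternative (grey). The left bars range from 140 to 1871 and the right bars from 1136 to 2186.

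Chromosome 5 was low in both BDIV tumours and not in the BDIX tumours, which was seen in the values and not sought beforehand. For 2918 features with a mean level of at least 9, each tumour's difference from its own strain's pools was taken and the array's median subtracted. The median over the 156 such features on chromosome 5 was -0.72 in BDIV tumour 1 and -0.68 in BDIV tumour 2, and -0.02 and 0.09 in BDIX tumours 1 and 2. Of these features 110 (70.5%) were lower in the BDIV tumours than in the BDIV pools and 65 (41.7%) were lower in BDIX, while on the other chromosomes 41.9% were lower in each strain. The 6 nerve pools lay between -0.04 and 0.01 on chromosome 5, and between -0.15 and 0.10 over all chromosomes. Pool values were not taken against their own strain's pools, so their reference differs from that of the 4 tumours.

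The low values were not particular to BDIV, and the BDIX tumours were apart from all other MPNST of the series on chromosome 5. The remaining 8 MPNST, from F1-hybrid and congenic rats and set against the mean of all 6 nerve pools, had medians of -0.71 to -0.28 there, of which 7 were high-background arrays (-0.63 to -0.28) and 1 a low-background array (-0.71). The strain difference was higher in BDIX for 72 of 543 features on chromosome 5 (13.3%), against 4.50% of features with a chromosome. Chromosome 5 held 543 of the 8396 features with a chromosome. Of 164 features with a chromosome that fell in BDIV only, 41 lay on chromosome 5. They include Nsun4, a mitochondrial RNA methyltransferase, at 7.51 and 7.43 in the BDIV pools and 5.76 and 5.68 in the tumours, and Vcp, an ATPase that extracts ubiquitinated proteins, which fell by 1.40 ± 0.29. The 4 opposite features on chromosome 5, Coq3 and Luzp1 among them, all fell in BDIV and rose in BDIX. With the background range as a block 4 of the 72 features were called. Of all 81 strain differences then higher in BDIX, 5 lay on chromosome 5.

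Other chromosomes departed in both tumours of a strain or in 1 of them. Besides chromosome 5, chromosomes 2, 6, 17, 19 and 20 lay outside the range of the 6 pools on the same side in both BDIV tumours, and chromosomes 2, 3, 4, 12, 15 and X in both BDIX tumours. Some lay barely outside. Chromosome 6 was at -0.061 and -0.067 in the BDIV tumours (lowest pool -0.06), and chromosome 15 at 0.06 in both BDIX tumours (highest pool 0.049). Chromosome 20 was at 0.21 and 0.41 in the BDIV tumours (pools -0.11 to 0.05), chromosome 19 at -0.21 and -0.15, and chromosome 2 at 0.22 and 0.21 in the BDIX tumours (pools -0.05 to 0.04) and at 0.09 and 0.15 in the BDIV tumours. Chromosome 4 was at 0.47 and chromosome 10 at 0.35 in BDIV tumour 1, against 0.07 and 0.03 in BDIV tumour 2. Chromosome 8 was at -0.67 in BDIV tumour 2 and at -0.01 in BDIV tumour 1. Chromosome X was at -0.52 in BDIX tumour 1 and at -0.15 in BDIX tumour 2. On chromosome 5 the medians of BDIV tumours 1 and 2 were -0.71 and -0.63 with median scaling, and -0.72 and -0.64 with the authors' values. Gene copy number was not measured, and its part in these medians was not tested.

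**Figure D5:**
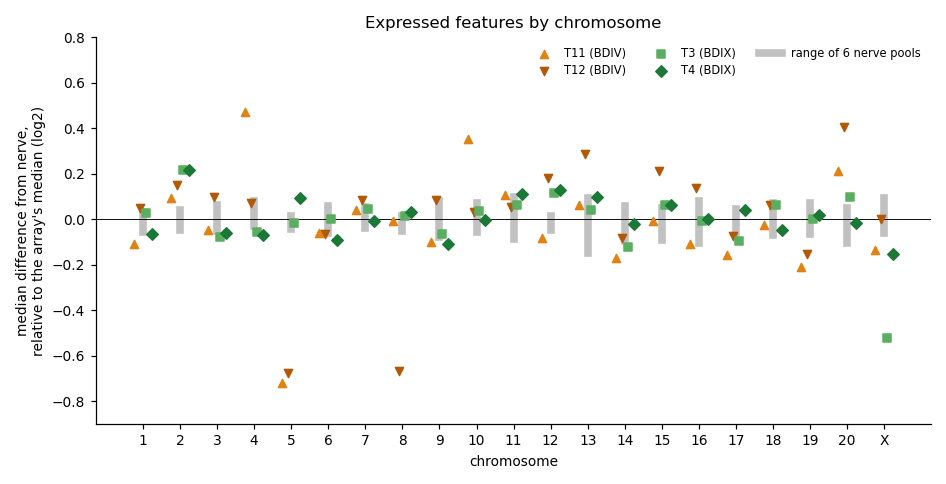
Median difference between each of the 4 tumours and its own strain's nerve pools (log2), relative to the array's median, over expressed features of each chromosome, with grey bars for the range of the 6 nerve pools. The pools were not set against their own strain's pools as the tumours were. Chromosome 5 is low in both BDIV tumours (-0.72 and -0.68) and near 0 in both BDIX tumours.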

How the data were processed

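Biotin-labelled cRNA from total RNA had been hybridized to the arrays, which the authors read with BeadStudio 3.0, per the submitters' processing notes. The deposited raw table holds, per the file headers, an intensity for each of 21791 probes and array, not normalized, and a detection p-value. The authors also deposited background-subtracted and scaled intensity values, in which the columns of BDIV pools 1 and 2 match each other's raw column. No date or slide was used as a batch.

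From the deposited intensities, neqc of limma 3.58.1 in R 4.3.3 made log2 values by normexp background correction, an offset of 16 and quantile normalization. Detection p-values step by 1/825 of the negative controls. For 606 probes they were off these steps and did not follow the signal. Kept in, these probes raised neqc's background SD from between 10.3 and 32.4 to between 104 and 306, so they were left out, a departure from the planned processing made after the data and its effect on the counts were seen. Of the other 21185 probes, 11509 were detected (p under 0.05) on at least 6 of 19 arrays. The probe with the highest mean was used for each symbol, which left 11492 features, 8409 of them named. Symbols came from the platform annotation and chromosomes from RefSeq GRCr8 by Entrez gene identifier.

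Each strain and tissue had 1 coefficient in a limma fit of all 19 arrays (11 residual degrees of freedom). Tests were two-sided, and p-values were adjusted over all 11492 features after Benjamini and Hochberg. SE is the fit's standard error with 2 arrays per group. A fold is 2 to the power of the log2 difference and the offset makes folds of dim genes too small.

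Members, gene lists and alternatives were chosen with earlier results of these data known. Named were the 10 highest and 10 lowest shared genes by the smaller of both differences, up to 10 opposite genes, up to 6 for each strain and direction of changes in 1 strain only, the 8 highest and 8 lowest strain differences, up to 2 called members of each list and direction, and 13 fixed genes. Genes named for chromosome 5 were chosen after their values were seen. Bounds replace undetected values as described with Mlph. Alternatives were another scaling, the authors' values, other offsets and filters, the 8 arrays alone, background range as a block or removed, sex, array weights, a variance trend and each array left out.

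The number of arrays limits the precision. Tested on simulated data over 11492 features, the fit found 16.9% of changes of 1 and 79.4% of changes of 2 in BDIV, 19% and 71% in BDIX, and 0% and 36.4% of strain differences. False calls were 4.41%, 1.79% and 4% of calls in the simulation. It changed far fewer features than were called in the data, between 58 and 80 for each size. Its noise had the same spread in every group, and it held no background difference. These shares may therefore not hold for the real arrays.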

Additional observations from a re-analysis of the deposited data

Results flagged for a closer look

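The tumour change differed between strains for 53 named genes by limma's test of the difference itself, given here as the BDIX change minus the BDIV change on the log2 scale. It was higher in BDIX for Crmp1 (5.29), Mstn (5.02), Slc40a1 (4.02), Basp1 (3.87), Rnf182 (3.82), Mgmt (3.78), Tmod1 (3.72) and Cnrip1 (3.56). Next came Nxph1 (3.52), Tmem163 (3.50), Gap43 (3.46), Anp32a (3.46), Serpinb9 (3.33), Nnmt (3.21), Coq3 (2.93) and Spint1 (2.76). Smaller differences in this direction were those of Luzp1 (2.69), Impa2 (2.57), Gmnn (2.34), Cox5a (1.79), Mvd (1.69), Uqcrc1 (1.53) and Ndufa10 (1.08).

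The change was lower in BDIX for Fgl2 (-4.78), Efhd1 (-4.64), Tmprss5 (-3.98), Ccl7 (-3.68), Hba-a3 (-3.56), Col23a1 (-3.48), Pgc (-3.42), Lgals5 (-3.33), Lrrc17 (-3.24) and Palmd (-3.23). It was also lower for Lrrc23 (-3.04), Mbp (-2.98), Mia (-2.90), Cyp2d4 (-2.87), Mgp (-2.85), Srebf1 (-2.83), Plcb1 (-2.59), Erbb3 (-2.59), Inpp5f (-2.56) and Ptn (-2.56). The remaining genes were Acad10 (-2.52), Gpx3 (-2.49), Cyp2t1 (-2.24), Cers2 (-2.04), Egr1 (-1.98), Cnp (-1.96), Gstm2 (-1.69), Sox10 (-1.38), Tjp1 (-1.35) and Ldhb (-1.20). Slc40a1, the iron exporter ferroportin, was called in neither strain alone, with -1.99 ± 0.76 in BDIV and 2.04 ± 0.76 in BDIX. Only the BDIX tumours were high-background arrays, and 10 of the 53 were called with the background range as a block.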

How the results depend on the processing

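Values are given as BDIV calls, BDIX calls, strain differences, changes in 1 strain only, opposite and shared changes, which in the report numbered 3690, 3268, 974, 706, 59 and 1707. Opposite changes numbered 25 with median scaling and 38 with the background effect removed at constant tissue. A fit of the 8 arrays alone gave 1589 strain differences, 1066 changes in 1 strain only and 151 opposite changes, and array weights gave 1871, 1369 and 146. With the background range as a block there were 1635 BDIX calls, 140 strain differences, 98 changes in 1 strain only, 16 opposite and 1136 shared changes. BDIV pools averaged, an alternative chosen after seeing the data, gave 2301 BDIV calls, 168 strain differences, 106 changes in 1 strain only and 17 opposite changes. The 606 irregular probes kept, also chosen after seeing the data, gave 3384, 2921, 1519, 992, 73 and 1443. Leaving out each array in turn gave 2318 to 3686 BDIV calls, 1761 to 3315 BDIX calls, 143 to 859 strain differences, 94 to 661 changes in 1 strain only, 17 to 68 opposite and 1140 to 1543 shared changes. A pair with 1 array left was assumed to vary like the other groups. The cause of these shifts was not tested, apart from the fewer samples when arrays were left out or averaged.

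Scaling moved the median of all features in BDIX from 0.04 to -0.18 (median scaling) and -0.21 (the authors' values), and the share of BDIX calls that rose from 49.3% to 27.3% and 31.9%. In BDIV the medians were 0.09 and 0.17, and the share of calls that rose 42.7% with median scaling against 51.5%. With the authors' values 330 strain differences were higher and 712 lower in BDIX. List medians in BDIX turned below 0 under both scalings for oligodendrocyte precursor and matrix protease genes, and with median scaling for immediate early genes (-0.02). The BDIV fibroblast median of -0.07 became 0.01 with the authors' values.

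Of 5355 values of named genes under alternatives, 4665 kept sign and side of the threshold, 662 lost the call, 19 gained one and 9 changed sign. The BDIX difference of Nf1 became -0.024 with the authors' values and that of Sox10 -0.046 with the background block and -0.035 with the background effect removed, which also gave 0.16 for Ptn and -0.042 for Ngfr. The strain difference of Ccnd1 became -0.29 with the block, -0.22 with the background effect removed and -0.14 without BDIX nerve pool 2, in a range of -0.14 to 1.19 over the arrays left out, and that of Aard 0.049 without BDIX nerve pool 1, in a range of -1.65 to 0.049. Under the block and with the background effect removed, 17 and 43 BDIX calls changed sign. Neither moves the BDIV differences, whose arrays all lie in the low range. No paired analysis was possible because a tumour and a pool of the same number come from different rats and their numbers were given in accession order.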
